A study of Homo sapiens with 6 samples.

Results

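Collagens are the triple-helical proteins that give tissues their fibrils and sheets, and laminins are the cross-shaped proteins, each made of an alpha, a beta and a gamma chain, that build basement membranes. The genes followed here are those whose single platform symbol names a collagen chain (COL, a number, A and a number) or a laminin chain (LAMA, LAMB or LAMC and a number). The rule found 53 genes, 43 collagen and 10 laminin genes, among 19775 named genes, and they were read by 135 of 54675 probe sets. It used names only and no measured value. Laminin chains join inside the cell before secretion, so a trimer needs 1 chain of each kind, whereas collagen chains are folded and hydroxylated in the endoplasmic reticulum and trimmed and cross-linked outside the cell. Epithelial cells and carcinomas mostly make basement membrane laminins and few of the fibrillar collagens that fibroblasts secrete.

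Expression was measured on 6 arrays of H1299, a human non-small-cell lung carcinoma line grown in medium with 10% fetal calf serum. All cells were infected with lentivirus and harvested after 72 hours. The virus carried a scramble shRNA in the control group and 1 of 2 different shRNAs to RBP2 in the groups RBP2 KD1 and RBP2 KD2, written KD1 and KD2 here, with 2 arrays in each group. RBP2 is the older name of KDM5A, which removes methyl groups from lysine 4 of histone H3. One established line was used, and the labels do not state that replicates were separate cultures, so the p-values measure how far these arrays spread, and that spread may be purely technical. In RNA from whole cultures, fewer cells with a transcript and less of it per cell cannot be told apart.

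KDM5A stood at 9.35 and 9.42 on the log2 scale with scramble, at 7.42 and 7.27 with KD1 and at 6.66 and 6.72 with KD2, with log2 differences from scramble of -2.04 ± 0.11 (SE, limma adjusted p = 0.00475) and -2.69 ± 0.11 (adjusted p = 0.00237). The KD1 call of KDM5A was lost without scramble replicate 1 (adjusted p = 0.0598) or scramble replicate 2 (0.0639). The keratins KRT8 and KRT18 and the mesenchymal filament gene VIM were far above background on every array (lowest values 9.80, 12.8 and 14.9), while the epithelial adhesion gene EPCAM stayed at 2.30. Of 8 stromal markers 7 stayed under 4 on all arrays and only ACTA2 was above, between 5.62 and 6.33. The 6 endothelial markers reached at most 2.35. Of 4 leukocyte markers PTPRC, CD3E and CD14 stood at the lowest value of the arrays, 2.24, and ITGAM lay at 4.27 and 3.17 with scramble, 4.97 and 4.02 with KD1 and 6.03 and 4.69 with KD2. The summed log2 values of the leukocyte list were therefore 9.90 to 11, 10.7 to 11.7 and 11.4 to 12.8 in the 3 groups, and those of the stromal list 21.97 to 22.2, 22.24 to 22.24 and 21.5 to 21.9. The part of other cells in the results was not tested.

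Most of these matrix genes gave no signal. Only 17 of the 53, 10 collagens and 7 laminins, had a mean of at least 4 on their brightest probe set and were tested, and the count of tested genes over the whole array was 10526. The other 36 genes (33 collagens and 3 laminins) peaked at 3.54, and 26 of them read the same value on all 6 arrays. Among the 11 fibrillar collagens only COL1A1 and COL27A1 were tested. COL1A2, COL2A1, COL3A1 and COL5A3 read 2.24 on all 6 arrays. In the basement membrane family 1 of 6 type IV genes, COL4A5, was tested. COL4A1 and COL4A2, neighbours that encode the common type IV chains, stayed at 2.24 except for 1 reading of 2.38 for COL4A1. The beaded filament genes COL6A1 and COL6A2 passed but COL6A3, their usual partner chain, did not. The type VIII and type X genes and the laminin genes LAMA1, LAMA4 and LAMB4 did not pass either. Below the filter, 2 genes had readings more than 1 log2 unit apart. COL5A2 read 2.51 and 2.51 with scramble, 2.42 and 2.44 with KD1 and 2.99 and 3.47 with KD2. COL21A1 reached 3.54 on 1 KD1 array and 3.34 on 1 KD2 array against 2.53 to 2.57 elsewhere. Both were left untested.

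The start regions of 4 genes that changed with 1 shRNA are shown to let the promoters be compared, because the DNA-binding ARID domain of KDM5A is known to recognise the sequence CCGCCC. Each stretch is the 250 bases upstream of the first listed RefSeq start, build GRCh38.p14, on the strand of the gene, 5′ to 3′. Capitals mark CCGCCC or, from the other strand, GGGCGG, which is also the core of the GC box bound by SP1. LAMC1 lies at chr1:183023170-183023419 (plus strand), LAMB3 at chr1:209652426-209652675 (minus), COL13A1 at chr10:69801656-69801905 (plus) and COL7A1 at chr3:48595330-48595579 (minus).
LAMC1: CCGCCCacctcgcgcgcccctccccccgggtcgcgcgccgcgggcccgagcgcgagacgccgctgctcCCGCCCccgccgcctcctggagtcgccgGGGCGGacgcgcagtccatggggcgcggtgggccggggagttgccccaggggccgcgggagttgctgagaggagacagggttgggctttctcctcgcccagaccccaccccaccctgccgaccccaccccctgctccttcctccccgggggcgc
LAMB3: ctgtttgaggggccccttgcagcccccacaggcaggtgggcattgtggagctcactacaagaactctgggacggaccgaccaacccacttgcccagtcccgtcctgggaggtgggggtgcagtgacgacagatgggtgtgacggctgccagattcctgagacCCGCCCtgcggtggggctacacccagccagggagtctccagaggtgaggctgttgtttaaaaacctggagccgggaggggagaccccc
COL13A1: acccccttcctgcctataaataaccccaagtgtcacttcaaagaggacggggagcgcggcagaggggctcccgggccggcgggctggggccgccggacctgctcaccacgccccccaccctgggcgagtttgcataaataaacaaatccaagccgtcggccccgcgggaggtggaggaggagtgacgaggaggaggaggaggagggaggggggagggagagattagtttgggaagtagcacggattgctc
COL7A1: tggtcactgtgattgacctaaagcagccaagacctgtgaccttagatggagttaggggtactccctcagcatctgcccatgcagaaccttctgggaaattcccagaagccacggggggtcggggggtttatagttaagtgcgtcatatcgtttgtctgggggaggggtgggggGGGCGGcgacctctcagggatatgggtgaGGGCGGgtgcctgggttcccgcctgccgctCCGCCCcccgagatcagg
The motif was found 3 times in LAMC1, 1 time in LAMB3, 3 times in COL7A1 and not in COL13A1. Of the 39 members with a listed start, 23 (59.0%) held it, against 42.3% of all 27305 promoters. Among tested genes the shares were 11 of 14 members (78.6%) and 69.0% of 8733 promoters, and COL18A1 had the most matches, 9. Promoters of members that changed and of members that did not both held the motif: LAMB1, which passed no comparison, had 4 matches. A match is a description of these letters and not a binding site.

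Among the brightest probe sets of the 17 tested genes, that of the laminin gamma 1 chain gene showed the largest difference from scramble, with KD2. The gamma 1 chain is part of most laminin trimers. The brightest probe set of LAMC1 read 10.1 and 10.3 on the log2 scale with scramble, 10.3 and 10.7 with KD1 and 6.43 and 7.0 with KD2. Both KD2 arrays lay far below the other 4, and the KD1 arrays lay slightly above the scramble ones. LAMC1 fell 11.1-fold with KD2 (log2 difference -3.48 ± 0.23 SE, limma adjusted p = 0.00315). With KD1 the difference was 0.29 (adjusted p = 0.471), and KD1 stood above KD2 by 3.77 ± 0.23 (adjusted p = 0.00128). The KD2 call held when any single array was left out (log2 differences of -3.76 to -3.19).

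A second LAMC1 probe set did not show the fall with KD2. It read 7.97 and 8.15 with scramble, 7.41 and 7.60 with KD1 and 7.92 and 7.93 with KD2. Its differences were -0.55 with KD1 (adjusted p = 0.0629 over all probe sets) and -0.14 with KD2 (adjusted p = 0.472). With the replicate number as a block the lower KD1 reading of this set passed (adjusted p = 0.0240), as did KD1 minus KD2 of -0.42 (0.0566 without and 0.0233 with the block), so the 2 probe sets of LAMC1 disagree on the KD2 difference. With the 2 probe sets averaged the KD2 difference was -1.81. Which transcripts the 2 sets read was not tested.

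LAMB3, the beta chain of the laminin that anchors epithelia to the dermis through hemidesmosomes, fell with KD1. Its only probe set read 7.49 and 7.64 with scramble, 5.96 and 5.62 with KD1 and 7.59 and 7.63 with KD2. The KD1 arrays lay below all others, while the scramble and KD2 readings overlapped. LAMB3 was 3.42-fold lower with KD1 (log2 -1.77 ± 0.15, adjusted p = 0.00765), at 0.05 with KD2 (adjusted p = 0.816), and lower in KD1 than in KD2 by -1.83 ± 0.15 (adjusted p = 0.00169). Leaving out scramble replicate 1 or scramble replicate 2 ended the KD1 call of LAMB3 (adjusted p = 0.0695 and 0.0726).

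The other laminin chains did not pass the test with either shRNA. LAMB1, the beta chain that pairs with gamma 1 in many basement membranes, ranged from 9.81 to 10.3, and its intervals were -0.59 to 0.31 with KD1 and -0.35 to 0.56 with KD2 (95% of the difference). LAMB2, the beta chain of synaptic and kidney basement membranes, read 6.88 and 7.54 with scramble, 7.38 and 8.09 with KD1 and 6.71 and 6.98 with KD2. LAMA5, the alpha chain of many epithelial basement membranes, read 8.12 and 9.05 with scramble, 8.46 and 9.16 with KD1 and 7.76 and 8.12 with KD2. In each of these groups replicate 2 of both genes was the higher. LAMA2, the alpha chain of muscle laminin, had differences of -0.05 and 0.57 from its brightest probe set, with 2 dimmer sets at -0.25 and 0.49 and at -0.33 and 0.43, in the order KD1 and KD2. KD1 minus KD2 of these dimmer LAMA2 sets was -0.74 and -0.76, which passed with the block (adjusted p = 0.0215 and 0.0148) and not without (0.0672 and 0.132). LAMC3, a rarer gamma chain, stayed between 3.88 and 4.70.

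Blocking on the replicate number added calls for 2 more laminin chains. LAMA5 was lower with KD2 (log2 -0.64, adjusted p = 0.267 without and 0.0263 with the block) and LAMB2 was higher with KD1 (0.53, adjusted p = 0.364 without and 0.04996 with the block, just under the threshold). Both genes also differed between the shRNAs under the block: KD1 minus KD2 was 0.87 for LAMA5 (adjusted p = 0.136 without and 0.00895 with the block) and 0.89 for LAMB2 (0.0872 and 0.00592).

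**Figure D1:**
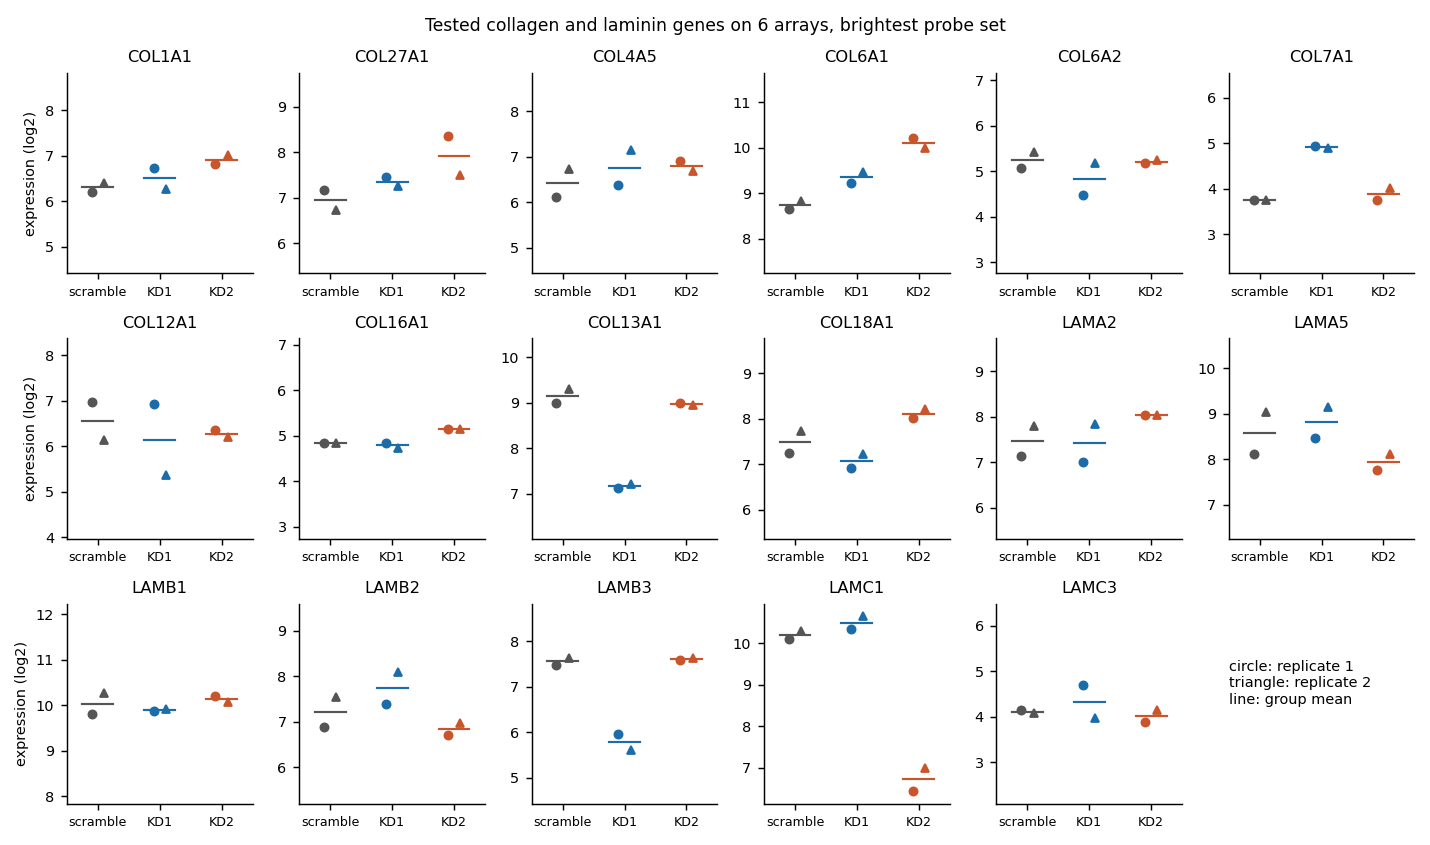
Expression on the log2 scale (vertical axes, each panel centred on its own gene) of the 17 tested collagen and laminin genes by group, with a circle for replicate 1, a triangle for replicate 2 and a line for the group mean. LAMC1 is low on both KD2 arrays (6.43 and 7.0), LAMB3 and COL13A1 are low on both KD1 arrays, and COL6A1 is highest with KD2.

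Among collagens, the transmembrane collagen gene COL13A1, whose product sits at cell-matrix contacts, fell with KD1. Its brightest probe set read 9.0 and 9.30 with scramble, 7.13 and 7.22 with KD1 and 8.99 and 8.95 with KD2. KD1 arrays lay below all others, and the KD2 arrays lay just under the lower scramble reading. COL13A1 was 3.93-fold lower with KD1 (log2 -1.97 ± 0.14, adjusted p = 0.00681), -0.18 with KD2 (adjusted p = 0.363) and lower in KD1 than in KD2 by -1.79 ± 0.14 (adjusted p = 0.00152). The KD1 call of COL13A1 was lost without scramble replicate 1 (adjusted p = 0.0598), scramble replicate 2 (0.0639) or KD1 replicate 1 (0.0508). Its 2 dimmer probe sets, both of the cross-hybridising _x_at class, had KD1 differences of -0.76 and -0.80 (adjusted p = 0.121 and 0.341). The first of these passed with the block (0.0458), and with all 3 averaged the KD1 difference was -1.18 (adjusted p = 0.0485).

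COL7A1, which builds the anchoring fibrils under hemidesmosomes, was higher with KD1. It read 3.75 on both scramble arrays, 4.94 and 4.91 with KD1 and 3.75 and 4.02 with KD2. The value 3.75 was shared by 3 arrays and is this probe set's floor, so the sizes of its differences are not exact. COL7A1 read 2.25-fold higher with KD1 (log2 1.17 ± 0.13, 95% interval 0.84 to 1.51, limma adjusted p = 0.0130). Its KD2 difference was 0.14 (adjusted p = 0.458). KD1 stood above KD2 by 1.03 on the log2 scale (95% interval 0.70 to 1.37, limma adjusted p = 0.00439), and 1 KD2 array was at the floor too. The group means were 3.75 with scramble, 3.89 with KD2 and 4.92 with KD1, so COL7A1 passed the filter at 4 only through KD1, the group where it is high, and a gene that passes in this way had to differ. The KD1 call of COL7A1 was lost without scramble replicate 1 (adjusted p = 0.0909), scramble replicate 2 (0.0928), KD1 replicate 1 (0.0684) or KD1 replicate 2 (0.0719), and with no filter on dim genes (0.0519). A dimmer COL7A1 set stayed at 2.49 on all arrays.

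COL6A1, a chain of the beaded filaments around many cells, rose with KD2. Its brightest probe set read 8.65 and 8.83 with scramble, 9.23 and 9.46 with KD1 and 10.2 and 9.99 with KD2, and the 3 groups did not overlap. COL6A1 was 2.56-fold higher with KD2 (log2 1.36 ± 0.15, adjusted p = 0.00545) and KD1 minus KD2 was -0.76 ± 0.15 (adjusted p = 0.0156). Its KD1 difference of 0.60 did not pass (adjusted p = 0.0699) but did with the block (0.0400). A second probe set gave KD2 and KD1 differences of 1.13 (limma adjusted p = 0.0117) and 0.34 (0.270). That set read 5.26 on both scramble arrays, its lowest value, so the sizes of these differences are not exact. The other COL6A1 sets stayed between 2.24 and 3.29 on every array. The KD2 call of COL6A1 was lost without KD2 replicate 1 (adjusted p = 0.0513), and its call between the shRNAs without KD1 replicate 1 (0.0684) or KD2 replicate 1 (0.0891) or with no filter (0.0661). The neighbouring gene COL6A2, which encodes its partner chain, had differences of -0.43 with KD1 and -0.05 with KD2 on the brightest set and 0.65 and 0.84 on a dimmer one. Neither set passed without the block (adjusted p = 0.0938 for the dimmer set with KD2), and the dimmer set passed with KD2 under it (0.0244). The scramble mean of this dimmer COL6A2 set, 3.96, was just under the filter.

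COL18A1, the source of endostatin in basement membranes, differed between the shRNAs. It read 7.24 and 7.72 with scramble, 6.92 and 7.23 with KD1 and 8.01 and 8.21 with KD2, so both KD2 arrays were above all others. KD1 minus KD2 was -1.04 ± 0.21 (adjusted p = 0.0166) and -0.94 (adjusted p = 0.0130) by its second probe set. Against scramble COL18A1 stood at -0.41 with KD1 (adjusted p = 0.278) and 0.63 with KD2 (adjusted p = 0.0800). With the block both passed, as a fall with KD1 (adjusted p = 0.0484) and a rise with KD2 (0.00971). The difference between the shRNAs was no longer called without KD1 replicate 1 (adjusted p = 0.0790), KD2 replicate 1 (0.0767) or KD2 replicate 2 (0.0998), or with no filter on dim genes (0.0895).

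COL27A1, a fibrillar collagen of cartilage, read 7.16 and 6.72 with scramble, 7.44 and 7.25 with KD1 and 8.34 and 7.50 with KD2. Its KD2 difference of 0.98 passed with the block (adjusted p = 0.0110) and not without (0.0731). The block also added COL27A1 in the mean of both shRNAs (0.69, adjusted p = 0.0286 with and 0.158 without) and in KD1 minus KD2 (-0.58, 0.0424 and 0.206). The next brightest COL27A1 set did not move and stayed between 4.51 and 4.52 on all arrays. A dimmer COL27A1 set read 3.75 and 3.34 with scramble, 5.35 and 4.15 with KD1 and 5.71 and 4.53 with KD2. It stood at 1.205 with KD1 and 1.57 with KD2 (limma adjusted p = 0.240 and 0.0953, and 0.0271 and 0.00777 with the block). The scramble mean of this dimmer set, 3.54, was under the filter. The set passed the filter only through the knockdown arrays, so these p-values are no support for a rise of COL27A1. COL16A1, a fibril-associated collagen, read 4.84 on both scramble arrays and 1 KD1 array, 4.74 on the other KD1 array and 5.14 and 5.15 with KD2. KD1 minus KD2 was -0.36 ± 0.10 (adjusted p = 0.0446), a small difference next to a value shared by 3 arrays, and this call was lost whichever of the 6 arrays was left out (adjusted p = 0.0759 to 0.132) and under 5 other settings (up to 0.0825). With KD2 COL16A1 passed under the block (0.30, adjusted p = 0.0431) and not without (0.0808).

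The remaining 2 tested collagens, COL4A5 and COL12A1, were unresolved by their brightest probe sets. COL4A5, a type IV chain, had intervals of -0.52 to 1.18 with KD1 and -0.48 to 1.22 with KD2. COL12A1, a fibril-associated collagen, had the widest ones, -1.87 to 1.04 and -1.74 to 1.17. A dimmer COL12A1 probe set read 4.07 and 3.73 with scramble, 4.52 and 4.07 with KD1 and 6.27 and 5.51 with KD2. It rose with KD2 by 1.98 (adjusted p = 0.0136 over all probe sets) while the brightest set stood at -0.29. The scramble mean of this dimmer set, 3.90, was under the filter.

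**Figure D2:**
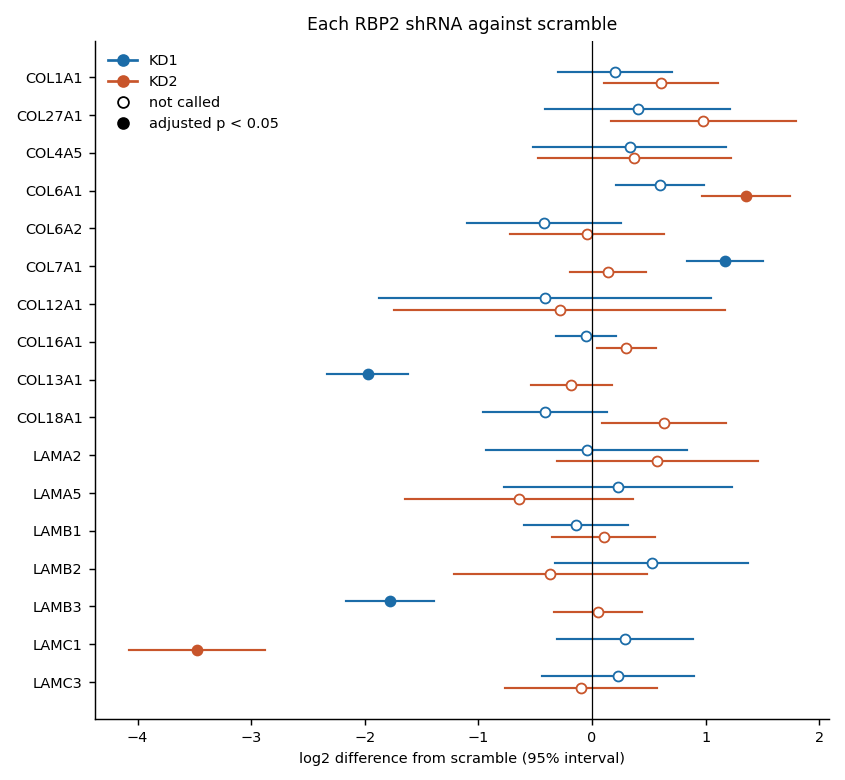
Log2 difference from scramble (horizontal axis) of the 17 tested genes with KD1 (blue) and KD2 (orange), with 95% intervals from limma and filled points for adjusted p under 0.05. COL13A1, LAMB3 and COL7A1 are filled for KD1, and COL6A1 and LAMC1 for KD2.

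COL1A1, a chain of the main fibrillar collagen, depended on which probe set was read. The brightest one, of the cross-hybridising _x_at class, read 6.20 and 6.40 with scramble, 6.73 and 6.27 with KD1 and 6.81 and 7.02 with KD2. Its differences of 0.20 with KD1 (adjusted p = 0.557) and 0.61 with KD2 (0.0707) did not pass. The next probe set of COL1A1 read 2.73 and 2.39 with scramble, 6.62 and 7.02 with KD1 and 6.31 and 6.62 with KD2, and all 4 knockdown arrays lay far above both scramble arrays. Its log2 differences were 4.25 with KD1 (adjusted p = 0.00613 over all probe sets) and 3.90 with KD2 (adjusted p = 0.00311), and KD1 minus KD2 was 0.35 (adjusted p = 0.252). The scramble readings were near the lowest value of the arrays, so the sizes of the differences from scramble are not exact. The set passed the filter only through the knockdown arrays and so had to differ from scramble, and these p-values are no support for a change of COL1A1. The other 3 COL1A1 probe sets stayed between 2.24 and 2.43 on every array, and COL1A2, whose chain joins COL1A1 in the type I trimer, stayed at 2.24 on all 3 of its sets. The higher COL1A1 readings were thus carried by 1 of 5 probe sets, a set of the _s_at class, which can match more than 1 transcript. What it reads on these arrays was not tested.

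**Figure D3:**
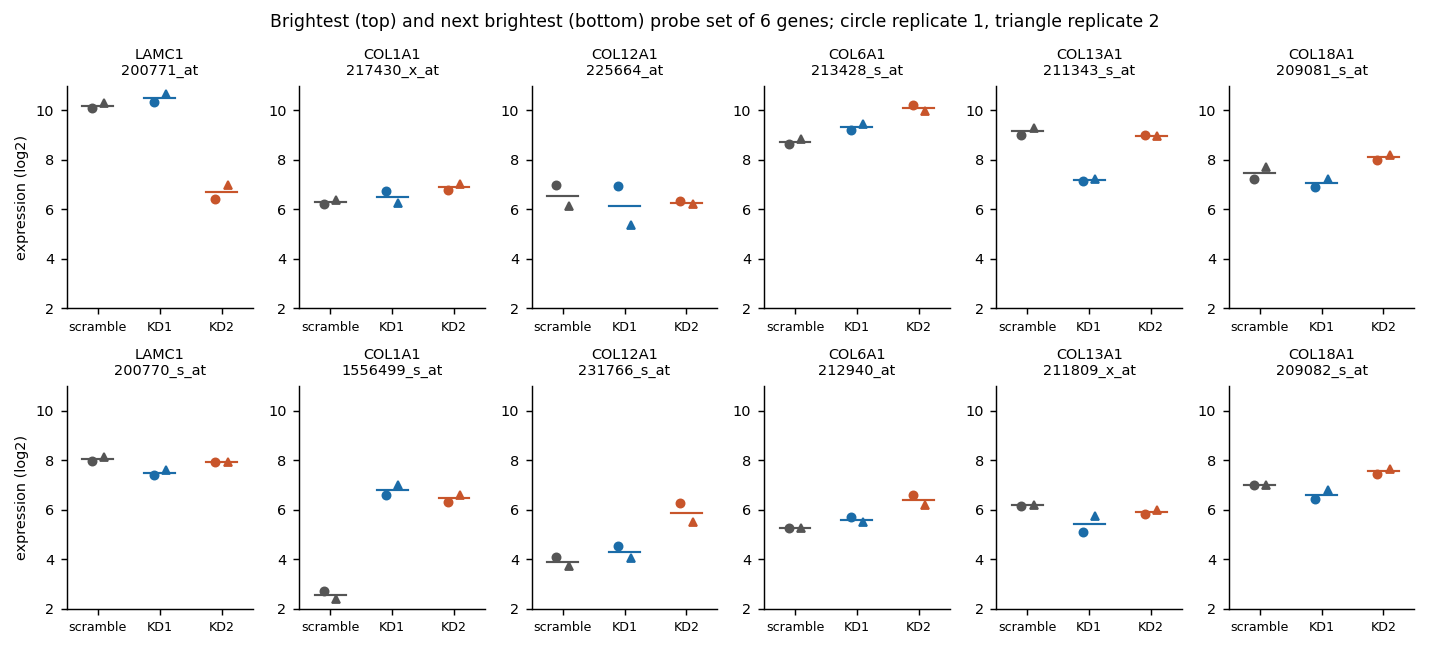
Expression on the log2 scale (vertical axes, 2 to 11) by group for the brightest (top) and next brightest (bottom) probe set of LAMC1, COL1A1, COL12A1, COL6A1, COL13A1 and COL18A1, with circles for replicate 1, triangles for replicate 2 and lines for group means. The 2 sets move alike for COL6A1 and COL18A1 and differ for LAMC1, COL1A1 and COL12A1.

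Few of the tested members passed in either knockdown. With KD1, 1 of 17 was higher and 2 fell, 17.6% in all, and the higher one was COL7A1, which passed the filter through KD1 alone. Of all tested genes 11.5% were called there, 3.62% higher and 7.9% lower. With KD2, 1 member rose and 1 fell, 11.8% in all, where 31% of all tested genes were called, 16.7% higher and 14.4% lower. Blocking on the replicate number gave 6 called members with KD1 (35.3%, against 29.6% of all genes) and 6 with KD2 (35.3%, against 50.6%). In the mean of both shRNAs, which uses the same scramble arrays, 2 were higher and 3 lower (29.4%, against 12.5% of all genes, 5.61% higher and 6.92% lower): COL6A1 and COL7A1 were higher and COL13A1, LAMB3 and LAMC1 lower. By the single shRNAs, in the order KD1 and KD2, LAMC1 stood at 0.29 and -3.48 on its brightest set and LAMB3 at -1.77 and 0.05. COL13A1 stood at -1.97 and -0.18, COL7A1 at 1.17 and 0.14 and COL6A1 at 0.60 and 1.36. None of these genes was called with both shRNAs without the block, so a call in the mean is not a change shared by both. COL6A1 was called with both under the block. With the block the mean comparison called 6 (35.3%, against 34.9%). The counts in the mean comparison fell to 0 without scramble replicate 1, scramble replicate 2, KD1 replicate 2, KD2 replicate 1 or KD2 replicate 2, where 5 or 6 members kept an unadjusted limma p under 0.05, and to 3 without KD1 replicate 1.

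The direct comparison of the shRNAs called 7 of 17 members (41.2%), and 41.1% of all tested genes were called there, 17.8% higher and 23.3% lower in KD1. With the block it called 10 (58.8%, against 57.7%). By their brightest probe sets LAMC1 and COL7A1 were higher in KD1, and LAMB3, COL13A1, COL18A1, COL6A1 and COL16A1 were higher in KD2. COL7A1 passed the filter only through KD1 and so had to differ. The unblocked count was 4 without KD1 replicate 1 or KD2 replicate 1. The median log2 difference of the 17 members was 0.20 with KD1 and 0.10 with KD2, next to 0.00 and 0.08 over all 10526 genes. The median size of the difference, sign left out, was 0.40 with KD1 and 0.37 with KD2 for members and 0.28 and 0.39 for all genes. The median SE was 0.23 for members and 0.17 for all genes, so the members were measured with less precision. Counted by probe set, 4 of 30 tested member sets were called with KD1 (13.3%, against 9.46% of 18763), 5 with KD2 (16.7%, against 27.6%) and 9 between the shRNAs (30%, against 38.1%). The KD1 and KD2 counts include the COL1A1 set that passed the filter only through the knockdown arrays. The COL7A1 set that passed it only through KD1 is in the KD1 count and in the count between the shRNAs. The KD2 count and the count between the shRNAs also hold the dimmer COL12A1 set, whose scramble mean of 3.90 was under the filter.

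**Figure D4:**
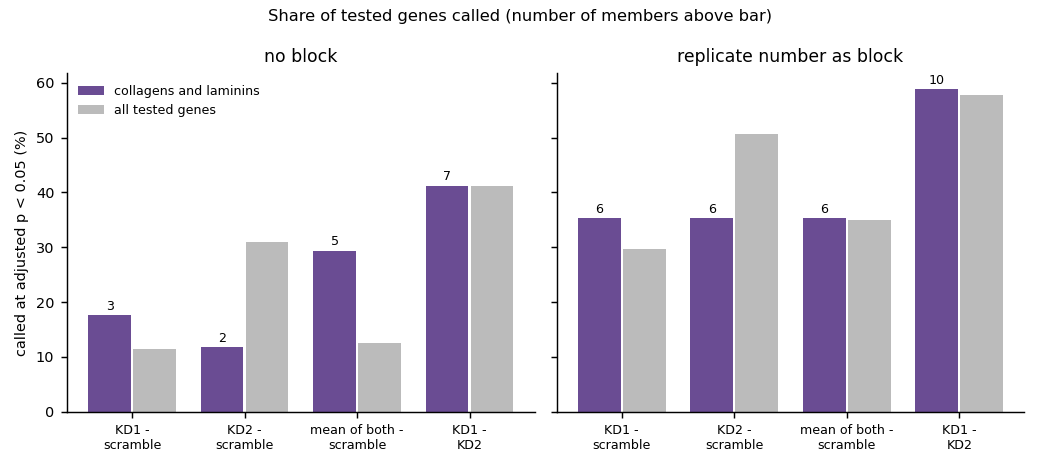
Percent of tested genes called by limma at adjusted p under 0.05 (vertical axis, from 0) in 4 comparisons, for the 17 collagen and laminin genes (purple, number called above the bar) and all 10526 tested genes (grey), unblocked (left) and blocked on the replicate number (right). The purple bar is below the grey one for KD2 in both panels.

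Genes that make, process or bind these proteins were counted in 4 lists, beside 11.5% of all tested genes called with KD1 and 31% with KD2 (29.6% and 50.6% with the block). Of 19 tested genes of collagen biosynthesis, 2 fell with KD1, while 3 rose and 1 fell with KD2 (4 higher and 2 lower, and 6 and 5, with the block). This list holds hydroxylases, glycosyltransferases and chaperones, the export genes MIA3, SEC23A and SEC24D, and TANGO2, which is not known to hydroxylate or fold collagen. PLOD1, a lysyl hydroxylase, read 7.28 and 8.04 with scramble and 5.65 and 6.0 with KD1 (log2 -1.83 ± 0.32, adjusted p = 0.0302), and PPIB, a prolyl isomerase, fell by 0.60 with KD1 (adjusted p = 0.0378). With KD2 PLOD1 stood at 0.64 (adjusted p = 0.186 without and 0.0155 with the block). With KD2, P3H2, a prolyl hydroxylase of basement membrane collagen, read 9.15 and 8.73 against 6.59 and 6.31 with scramble (2.48 ± 0.19, adjusted p = 0.00325). SERPINH1, the collagen chaperone of the endoplasmic reticulum, fell with KD2 by 0.99 ± 0.15 (adjusted p = 0.0100) and stood at 0.61 with KD1 (adjusted p = 0.0628 without and 0.0267 with the block). KD1 minus KD2 of SERPINH1 was 1.60 (adjusted p = 0.00202). P3H3 and TANGO2 rose with KD2 by 0.86 and 0.48. Among 8 tested genes for trimming and cross-linking 0 were called with KD1 by limma (0 also at an unadjusted p under 0.05), and 1 rose and 1 fell with KD2 (1 lower, and 2 higher and 1 lower, with the block). The largest KD1 differences were -0.48 for LOXL1 (adjusted p = 0.484) and -0.38 for LOXL2 (0.179 without and 0.04996 with the block). With KD2 LOXL2, a lysyl oxidase that cross-links type IV collagen, rose by 0.78 ± 0.15 (adjusted p = 0.0199) and PCOLCE2, a procollagen protease enhancer, fell by 0.71 ± 0.12 (adjusted p = 0.0126).

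Among 11 tested receptors of collagens and laminins 1 fell with KD1, and 2 rose and 2 fell with KD2 (blocked counts were 1 higher and 5 lower, then 4 higher and 2 lower). ITGB1, the beta chain shared by the collagen and most laminin integrins, read 14.0 and 14.4 with scramble, 12.8 and 13.2 with KD1 and 11.3 and 11.7 with KD2. It fell with both shRNAs, by 1.24 ± 0.22 (adjusted p = 0.0311) and 2.71 ± 0.22 (adjusted p = 0.00333), and was lower in KD2 than in KD1 (KD1 minus KD2 of 1.47 ± 0.22, adjusted p = 0.00632). The collagen-binding alpha chains ITGA1 and ITGA2 both rose by 1.54 with KD2 (adjusted p = 0.00679 and 0.0475) and stood at -0.48 and -0.68 with KD1, neither passing. SDC4, a heparan sulfate co-receptor, fell with KD2 by 1.06 ± 0.10 (adjusted p = 0.00409). CD44, a hyaluronan receptor that also binds collagen, was lower in KD1 than in KD2 by its brightest probe set (-0.87, adjusted p = 0.00888). Its other tested sets were negative too (-0.62 to -0.25), except the dimmest, at 0.62 (adjusted p = 0.204 without and 0.0348 with the block). Against scramble the brightest set stood at -0.57 with KD1 (adjusted p = 0.0707 without and 0.0338 with the block). Several dimmer CD44 sets were called lower with KD1 without the block (lowest limma adjusted p 0.0275).

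Of 12 tested partners of the matrix, 2 rose and 1 fell with each shRNA (3 higher and 2 lower, and 6 and 1, with the block). NID1, the nidogen that bridges laminin gamma 1 and type IV collagen, read 7.03 and 7.08 with scramble, 7.74 and 8.14 with KD1 and 7.72 and 7.82 with KD2. NID1 rose with both shRNAs, by 0.88 ± 0.16 (adjusted p = 0.0343) and 0.71 ± 0.16 (0.0285). TGFBI, a secreted collagen-binding protein, also rose with both, by 1.10 (adjusted p = 0.0403) and 2.15 (0.00483). PXDN, the peroxidase that cross-links type IV collagen, fell with KD1 by 1.58 ± 0.27 (adjusted p = 0.0299). With KD2 PXDN stood at -0.03 (adjusted p = 0.939), and KD1 minus KD2 was -1.54 (adjusted p = 0.0104). FBLN1, a fibulin of elastic fibers and basement membranes, fell by 0.76 with KD2 (adjusted p = 0.0347). Its other probe sets disagreed in size, at -0.23 (adjusted p = 0.387) and -2.05 (adjusted p = 0.00505). Leaving out any single array ended the KD1 calls of PLOD1, PPIB, ITGB1, PXDN, NID1 and TGFBI (highest adjusted p 0.123, 0.156, 0.144, 0.138, 0.155 and 0.159), while the KD2 calls of P3H2, ITGB1, SDC4 and TGFBI held. The KD2 call of SERPINH1 was lost without either KD2 array (highest adjusted p 0.0712), and those of PCOLCE2, LOXL2 and ITGA1 each without 1 scramble array or more and KD2 replicate 1 (0.0717, 0.114 and 0.0539). Those of NID1, FBLN1 and P3H3 were lost without any scramble or KD2 array (0.135, 0.158 and 0.184), that of ITGA2 without any array but KD2 replicate 2 (0.180) and that of TANGO2 without any of the 6 (0.125).

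**Figure D5:**
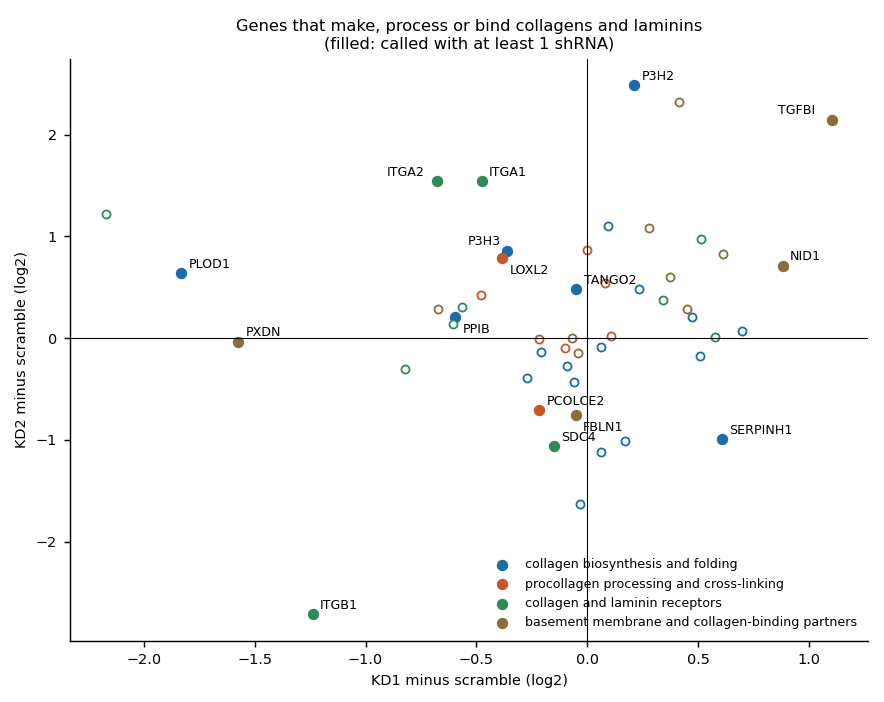
Log2 difference from scramble with KD1 (horizontal axis) and KD2 (vertical axis) of the tested genes that make, process or bind collagens and laminins, coloured by list, with named and filled points where at least 1 shRNA passed adjusted p under 0.05. ITGB1 lies in the lower left and TGFBI and NID1 in the upper right.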

How the data were processed

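The deposited values are log2 expression values. Per the submitters' processing notes the authors used GCRMA (version not given in the sources used here), and the log2 scale was read from the range of the values. RNA was 250 ng a sample, per the labels' protocols. GCRMA corrects background from probe sequence, normalizes arrays and summarises each probe set, and it sets dim probe sets to a floor: 37.8% to 38.7% of an array's values stood at 2.24. Values were used as deposited. Of 54675 probe sets 41091 had 1 platform symbol and 1801 several, and 41037 of those with 1 symbol matched RefSeq gene identifiers. Probe sets with several symbols were left out, and 1 combination of symbols among them held a collagen or laminin symbol. Each gene was read by its brightest probe set and tested at a mean of at least 4. Limma 3.58.1 (R 4.3.3) was fitted to all 6 arrays with 3 residual and 2.09 prior degrees of freedom, two-sided, adjusted by Benjamini-Hochberg over 10526 genes, called under 0.05. SEs and intervals are limma's moderated ones. The code was tested on simulated data.

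Array medians over tested genes were 8.49 to 8.56, and the number of arrays limits the precision. Replicate numbers come from the titles. Deviations of same-numbered arrays correlated at 0.75, 0.51 and 0.53 in the 3 pairs of groups, so the numbers were taken to pair the arrays. Values with the replicate block are given where they change a call of a member's brightest probe set. For dimmer probe sets and for partner genes only some of these values are given, beside the blocked counts of each partner list. The members and gene lists were chosen with earlier results of these data known. Named were KDM5A, up to 25 called members a comparison, the 12 members with the highest scramble mean and tested members at their floor in at least 1 group but not all 3. For each partner list and comparison up to 4 called genes with the smallest limma adjusted p were named, or the 2 largest differences where none was called. Most untested members at their floor in this way were not named. COL1A1, LAMC3, COL5A2, COL21A1, COL6A2 and the genes named as silent were chosen after their values were seen or as partner chains. The alternatives were a block, 2 other filters, 3 other probe set choices, centring, quantile normalization, a variance trend, fits of the compared groups only, and leaving out each array. Of the promoters, the starts of COL6A1 and COL1A1 were not printed.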

Additional observations from a re-analysis of the deposited data

Results flagged for a closer look

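The effects of the 2 shRNAs against the same scramble arrays differed by limma's test of KD1 minus KD2 for 7 members. On the log2 scale the difference was 3.77 for the brightest LAMC1 probe set and 1.03 for COL7A1, both higher in KD1. The second LAMC1 set gave -0.42 (limma adjusted p = 0.0566 without and 0.0233 with the block). One KD2 array of COL7A1 was at its floor, and the gene passed the filter only through KD1, where it is high. The difference was -1.83 for LAMB3, -1.79 for COL13A1, -1.04 for COL18A1, -0.76 for COL6A1 and -0.36 for COL16A1, all higher in KD2. KDM5A itself was lower in KD2 than in KD1, with KD1 minus KD2 of 0.65, and whether this bears on the differences was not tested.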

How the results depend on the processing

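With the replicate block the number of called members went from 3 to 6 with KD1 and from 2 to 6 with KD2. Averaging a gene's probe sets it was 1 with KD2 (LAMC1) and 2 in the mean of both shRNAs (LAMB3 and LAMC1), where only 12 members passed the filter. With no filter the mean comparison called 0 of 53 members by limma, and 6 had an unadjusted p under 0.05. The other settings stayed within 1.5 times the reported counts. Leaving out 1 array gave 0 to 3 called members with KD1, 1 to 3 with KD2, 0 to 3 in the mean comparison and 4 to 6 in KD1 minus KD2. The 0 with KD1 came without scramble replicate 1 or 2, where 4 members had an unadjusted p under 0.05; these fits have fewer samples and 2 residual degrees of freedom. Without KD1 replicate 1 the sign of COL1A1 with KD1 turned (-0.028 by its brightest probe set, not called), and the lowest and highest values over the left-out arrays were -0.028 and 0.43. Without _x_at probe sets COL1A1 was read by the set that is near the floor with scramble, and was called with KD1 (4.25) and KD2 (3.90). COL1A1 also passed with KD2 after centring the arrays (0.65), after quantile normalization (0.64) and in fits of only the compared groups. No called member changed its direction under any setting tried. No setting read LAMC1 by its second probe set alone, which gave KD1 minus KD2 of -0.42, against 3.77 by the brightest. The calls of partner genes with KD1 also ended with no filter and in fits of only the compared groups. Beside the values given in the report, the block changed no other call of a member's brightest probe set. Signal at or near the floor limits COL7A1, COL16A1 and the 36 untested genes.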
